A study of Mus musculus with 13 samples.

Results

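Messenger RNA of 10 genes for costimulatory and coinhibitory receptors of T cells was followed in sorted mouse thymocytes labelled as knocked out for the transcription factor Sox4 or as wild type. The genes were Btla, Ctla4, Pdcd1, Icos, Cd28, Cd2, Cd27, Tnfrsf4, Tnfrsf9 and Tnfrsf18, taken by name, and all 10 were measured among 19752 genes, each by 1 probe set. Thymocytes from the thymus of 2-week-old mice of mixed sex were sorted by flow cytometry, and RNA of each sample was hybridised to 1 Affymetrix gene array. V2 cells are immature γδ thymocytes, sorted as positive for the δ chain and for the Vγ2 chain, high for the immaturity marker HSA and lacking both coreceptors. DP cells carry both CD4 and CD8 and belong to the αβ lineage. By title there were 4 V2 cKO, 4 V2 WT, 3 DP cKO and 2 DP WT arrays, where cKO is the Sox4 conditional knockout and WT is wild type. The V2 titles are written as V2imm (2 cKO, 2 WT, the knockout given there only as KO) or as immV2, and these 2 title sets entered the fit as a covariate, since the labels do not say what they stand for. The sources used here give no strain, no promoter for the recombinase and no number of animals per sample. Values are log2 of the authors' RMA intensity, and a difference of 1 is a doubling.

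T cells respond to antigen through the T cell receptor, and costimulatory receptors raise that response while coinhibitory receptors restrain it. CD28 and ICOS, of the CD28 family, recruit phosphoinositide 3-kinase, whereas CTLA-4 competes with CD28 for its ligands, and PD-1 (Pdcd1) and BTLA recruit tyrosine phosphatases. CD2 binds CD48 in the mouse and strengthens adhesion to other cells. CD27, OX40 (Tnfrsf4), 4-1BB (Tnfrsf9) and GITR (Tnfrsf18) are receptors of the tumour necrosis factor family that signal through TRAF adaptors, and CD27 is known in the thymus as a marker of γδ cells that go on to make interferon-γ.

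The promoters of Btla and Pdcd1 are shown because these were the 2 members whose difference between V2 and DP cells passed an adjusted p of 0.05 upwards in both genotypes (values below). Each window is 300 bases, from 250 before to 50 after the annotated start, from RefSeq on GRCm38.p6, read 5′ to 3′ on the strand given. Capitals mark the E-box CANNTG, bound by E proteins, and GGAAA, the core bound by NFAT, on either strand. Btla lies at chr16:45224087-45224386 on the + strand and Pdcd1 at chr1:94052504-94052803 on the - strand.
Btla: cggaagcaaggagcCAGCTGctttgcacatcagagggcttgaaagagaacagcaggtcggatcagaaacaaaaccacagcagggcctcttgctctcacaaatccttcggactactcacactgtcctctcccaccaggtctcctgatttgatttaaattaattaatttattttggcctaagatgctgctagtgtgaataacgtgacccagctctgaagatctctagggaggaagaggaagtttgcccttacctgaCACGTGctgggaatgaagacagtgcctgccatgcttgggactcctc
Pdcd1: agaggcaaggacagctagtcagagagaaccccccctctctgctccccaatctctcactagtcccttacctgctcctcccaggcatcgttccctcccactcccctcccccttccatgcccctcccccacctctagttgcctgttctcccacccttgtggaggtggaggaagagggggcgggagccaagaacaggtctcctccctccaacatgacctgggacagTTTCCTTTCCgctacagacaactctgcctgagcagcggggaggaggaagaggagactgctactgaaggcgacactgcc
The Btla window held 2 E-boxes and no GGAAA, and the Pdcd1 window held 2 GGAAA and no E-box. Windows matched 7 of the 10 members, 8 windows in all. An E-box stood in 7 of these 8 windows, against 72.3% of the 32851 windows of this length in the table, and GGAAA in 7 of 8, against 61.3%. The Sox-type cores AACAAAG (5.85% of all windows) and AACAATG (3.78%) were in 0 of the 8, which says only that these letters are not in these windows.

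Before the receptors, the labels were set against markers. The array titled DP.Sox4cKO#5 (called here the array labelled DP cKO replicate 5) had a summed intensity of 2761 over 9 DP thymocyte markers, against 38915 to 43268 in the other 2 DP cKO arrays. The summed value was 42620 for the array titled immV2WT#5 (the array labelled V2 WT replicate 5, immV2), against 3384 to 3669 in the other 3 V2 WT arrays. Each thus carried the other population's markers, and both are shown apart. The comparisons use the other 11 arrays (4 V2 cKO, 3 V2 WT, 2 DP cKO, 2 DP WT), with values from all 13 as labelled given where they move a member's result. Over these 11 arrays 7 markers of V2 cells summed to 5382 to 9716 in V2 cKO and 12530 to 13343 in V2 WT arrays, and to 961 to 962 in DP cKO and 880 to 887 in DP WT arrays. Sox4 itself was 8.07 to 9.60 in V2 cKO and 8.64 to 9.68 in V2 WT arrays (log2 difference -0.51, SE 0.38), and 8.68 and 8.74 in DP cKO, against 8.55 and 9.37 in DP WT arrays (-0.25, SE 0.49). In V2 cells 3 of the 4 cKO arrays, at 8.07, 8.11 and 8.23, lay below all 3 WT arrays. The array labelled V2 cKO replicate 5 of V2imm read 9.60, above both WT arrays of its set (8.71 and 8.64). In Sox4 this array thus went against its label, but its V2 marker sum, 8321, lay below all 3 V2 WT sums. In DP cells Sox4 did not separate the labels, as DP WT replicate 5, at 8.55, lay below both DP cKO arrays. Because of the 9.60 reading, results in V2 cKO are also given without that array where that moves them. The sources used here do not say whether the Sox4 probe set lies in the deleted part. The labels do not say whether samples came from separate mice, so a p-value here speaks only of how far these samples scatter, and that scatter may be technical. In sorted cells, fewer cells of a type and less RNA per cell cannot be told apart.

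**Figure D1:**
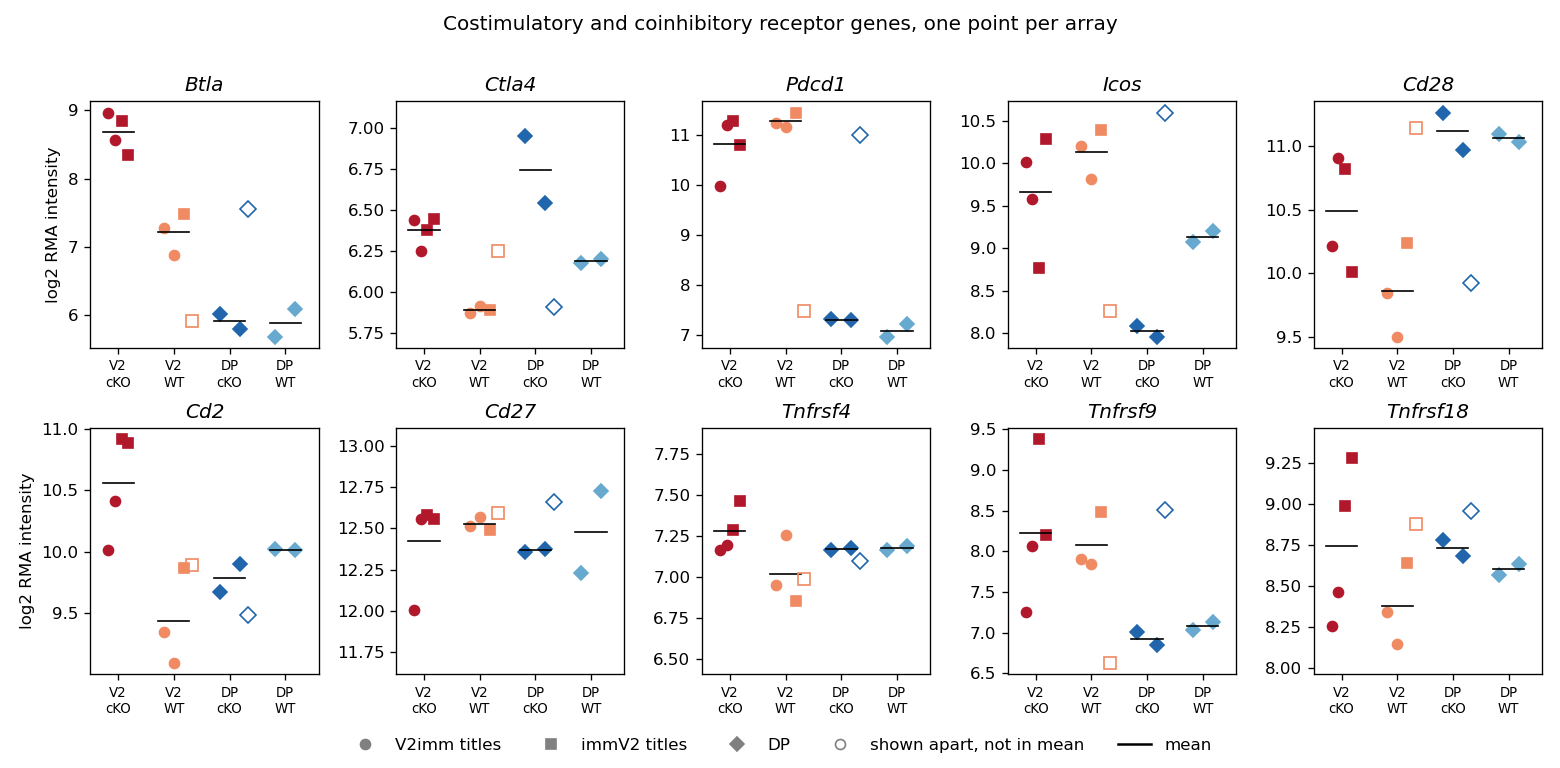
Log2 RMA intensity (y axis, a separate scale for each gene) of the 10 receptor genes in V2 cKO, V2 WT, DP cKO and DP WT arrays, with 1 point per array and a line at the mean of the arrays kept. Open symbols are the 2 arrays shown apart. All 4 V2 cKO points for Btla, from 8.35 to 8.97, lie above the 3 kept V2 WT points, from 6.88 to 7.48.

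The first comparison asks how the receptors differ in V2 cells labelled Sox4 cKO. In V2 cKO cells Btla had 2.75-fold and Cd2 2.01-fold the intensity of V2 WT cells, and Ctla4 was 1.39-fold, with every V2 cKO array above every V2 WT array for these 3 genes. Pdcd1 and Icos had lower means in V2 cKO cells. None of the 10 passed an adjusted p of 0.05 in limma, and nor did any of the 19752 genes (0%). At an unadjusted p under 0.05, 4 of the 10 were higher in V2 cKO (Btla, Cd2, Ctla4 and Cd28), against 1.99% of all genes, and 0 were lower, against 1.84%. Every V2 cKO array exceeded every V2 WT array in 3 of the 10, against 1.69% of all genes. The median difference of the 10 was 0.26, beside 0.01 over all genes. Members were chosen with such results known, so these shares describe the list and no more.

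Btla (probe set 10435982), an inhibitory receptor of lymphocytes, read 8.97 and 8.57 in the V2imm and 8.85 and 8.35 in the immV2 arrays of V2 cKO. It read 7.28 and 6.88 in the V2imm arrays and 7.48 in the immV2 array of V2 WT. The groups did not overlap, and the gap between the lowest cKO and the highest WT array exceeded the range within either group. The log2 difference was 1.46 (SE 0.19, 95% interval 1.05 to 1.87, adjusted p = 0.0572). An exact permutation test of the 4 against 3 arrays, two-sided, gave p = 0.0571, the smallest this design allows. Any gene whose groups do not overlap reaches that value, Cd2 and Ctla4 included, so it adds nothing to the lack of overlap. The call depended on the fit: with the 13 arrays as labelled Btla was 1.79 higher (adjusted p = 0.434), and the adjusted p ran from 7e-05 to 0.434 over 23 other settings, of which 7 passed. Without the array labelled V2 cKO replicate 5 of V2imm, 44 genes passed in place of 0, Btla among them (1.5, adjusted p = 0.0183). Btla also passed without V2 WT replicate 3 of immV2 (1.69, adjusted p = 0.0488) and without V2 cKO replicate 4 of immV2 (1.58, adjusted p = 0.0108). The first of these removes the only kept immV2 array of V2 WT. With the covariate its estimate is then that of the V2imm set alone, so these 2 settings are not separate support. Within the V2imm set the difference was 1.69 (SE 0.22, adjusted p = 0.0339), and within immV2, with 1 WT array, 1.12 (SE 0.25, adjusted p = 0.272).

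Cd2 (probe set 10500677), the adhesion receptor for CD48, read 10.01 and 10.41 in the V2imm and 10.92 and 10.89 in the immV2 arrays of V2 cKO. In V2 WT it read 9.34 and 9.09 in V2imm and 9.87 in immV2. The groups did not overlap, and in both genotypes the immV2 arrays were the higher ones. The log2 difference was 1.01 (SE 0.16, 95% interval 0.66 to 1.36, adjusted p = 0.0702), with 0.99 within V2imm and 1.03 within immV2. It passed in 2 of 23 other settings, with quantile normalisation (adjusted p = 0.0355) and without V2 cKO replicate 5 of V2imm (0.0438).

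Ctla4 (probe set 10346790), which takes the CD28 ligands from the cell surface, read 6.43, 6.25, 6.38 and 6.44 in V2 cKO, against 5.87, 5.91 and 5.89 in V2 WT. These levels are low: 2 of the 3 V2 WT readings fell below the lower quartile of all genes on their own array, so the size of the difference depends on the background. The log2 difference was 0.48 (SE 0.12, adjusted p = 0.380), with 0.45 within V2imm and 0.52 within immV2. Cd28, the main costimulatory receptor of T cells, read 10.22, 10.91, 10.82 and 10.01 in V2 cKO, against 9.85, 9.50 and 10.24 in V2 WT. Those groups overlapped, and the difference of 0.60 (SE 0.25, adjusted p = 0.999) was 0.89 within V2imm but 0.17 within immV2. The highest Cd28 reading, 10.91, was in the array labelled V2 cKO replicate 5 of V2imm, and without that array the difference was 0.36.

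Pdcd1, the inhibitory receptor PD-1, read 9.98, 11.20, 11.28 and 10.82 in V2 cKO, against 11.24, 11.17 and 11.45 in V2 WT. The groups overlapped, and V2 cKO replicate 4 of V2imm was the lowest array. The difference was -0.53 (SE 0.25, adjusted p = 0.999), and it was -0.21 without that array and -0.81 without V2 cKO replicate 5 of V2imm. As labelled it was 0.48, since the V2 WT array shown apart read 7.5. Icos, a costimulatory receptor that activation induces, read 10.02, 9.58, 8.77 and 10.28 in V2 cKO, against 10.20, 9.82 and 10.39 in V2 WT. Its groups overlapped (-0.47, SE 0.30, adjusted p = 0.999). The Icos estimate ran from -0.68 without V2 cKO replicate 4 of immV2 to -0.17 without V2 cKO replicate 3 of immV2, and it was -0.0022 with all 13 arrays as labelled.

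For the receptors of the tumour necrosis factor family the V2 cKO and V2 WT ranges overlapped. Cd27 was near 12.5 on all these V2 arrays except V2 cKO replicate 4 of V2imm, which read 12 (difference -0.13, SE 0.18). Tnfrsf9 ranged from 7.25 to 9.38 in V2 cKO, the widest spread of any member in any group, and from 7.84 to 8.49 in V2 WT (-0.01, SE 0.26, interval -0.57 to 0.56). Tnfrsf18 ranged from 8.25 to 9.28 in V2 cKO and from 8.15 to 8.64 in V2 WT (0.27, SE 0.16), with the immV2 arrays the higher ones in both. Tnfrsf4 ranged from 7.16 to 7.46 in V2 cKO and from 6.86 to 7.26 in V2 WT (0.25, SE 0.13).

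Markers of maturity and of other cells moved with genotype in part. Counts of genes above or below WT here are signs of the fitted differences, and 52.1% of all genes were above 0. Cd24a, the gene of HSA, read 12.31 and 11.61 in the V2imm and 10.38 and 9.46 in the immV2 arrays of V2 cKO, against 12.21 and 12.02 in V2imm and 11.67 in immV2 of V2 WT. All 4 measured mature T cell genes were above WT, with a summed intensity of 2105 and 2811 in V2imm and 5506 and 7590 in immV2 arrays of V2 cKO, against 2281 and 2147 in V2imm and 3062 in immV2 of V2 WT. Their part in the receptor differences was not tested. Within V2imm the Cd24a readings and these sums overlapped between genotypes, and within immV2 they did not. V2 WT has 1 array in immV2, so a lack of overlap there says little, here and for the sums below. B cells and dendritic cells also carry BTLA. Of 6 B cell genes 4 were above WT, with sums of 759 and 909 in V2imm and 1685 and 1660 in immV2 arrays of V2 cKO, against 709 and 684 in V2imm and 819 in immV2 of V2 WT. Within each title set every cKO sum was above every WT sum, and 2 of the 6 genes lay below the lower quartile on every V2 cKO array. These sums mostly follow Cd79b, with means of 9.81 in V2 cKO, 8.91 in V2 WT, 10.29 in DP cKO and 9.62 in DP WT. The means of Cd79a, Ms4a1, Ebf1, Pax5 and Fcrla were 5.51, 4.78, 5.16, 6.28 and 5.85 in V2 cKO. In V2 WT they were 5.53, 4.79, 5.20, 6.34 and 5.83. Of 15 macrophage and dendritic genes 14 were above WT in the fit, but by plain group means several of the 15, Cd74 among them, were below. Their sums were 1363 to 6798 in V2 cKO and 1343 to 3725 in V2 WT. The highest sum was in the array labelled V2 cKO replicate 5 of V2imm. Within V2imm these sums overlapped between genotypes, at 2137 and 6798 in V2 cKO against 3725 and 3439 in V2 WT. Within immV2 they did not, at 1796 and 1363 against 1343, but the last 2 values are close and V2 WT is 1 array. The part of these cells in the Btla difference was not tested. Of the 7 V2 markers 6 were below WT, as their sums above show. Natural killer genes gave sums of 226 to 302 in V2 cKO and 233 to 280 in V2 WT arrays.

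**Figure D2:**
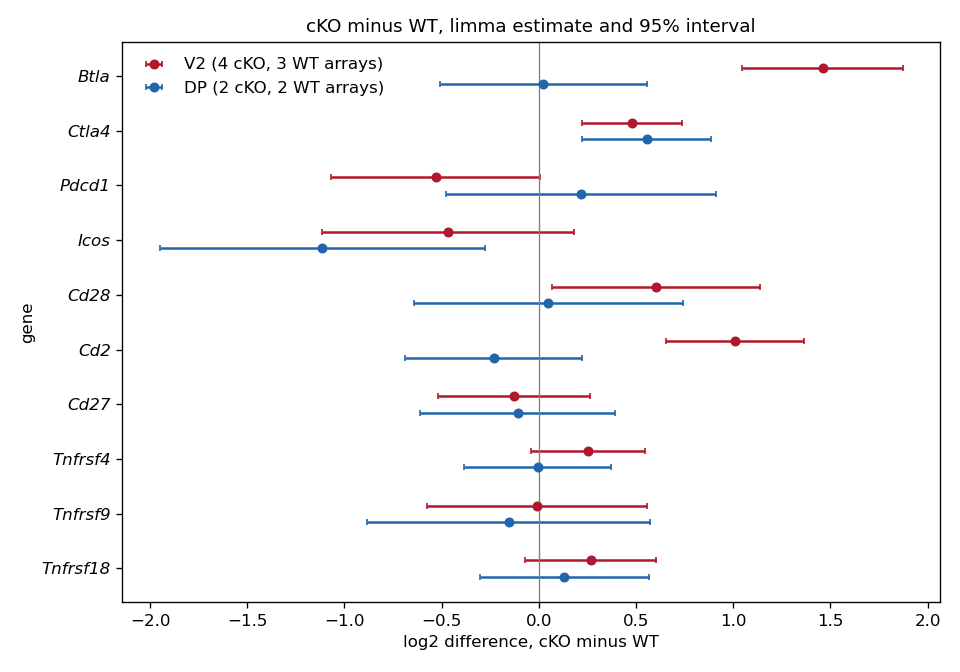
Log2 difference, cKO minus WT (x axis), of the 10 receptor genes (y axis) in V2 cells (4 cKO and 3 WT arrays) and DP cells (2 cKO and 2 WT arrays), as limma estimates with 95% intervals that are not adjusted for the number of genes. Btla and Cd2 lie at 1.46 and 1.01 in V2 cells and at 0.02 and -0.23 in DP cells, and Icos lies below 0 in both.

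In DP cells Icos and Ctla4 had the largest differences. Icos had a lower level in DP cKO cells, at 0.46 of the DP WT intensity, and Ctla4 a higher one, at 1.47-fold, while Btla, Cd28, Cd27 and Tnfrsf4 had DP cKO means within 0.11 of DP WT. None of the 10 passed, against 5 of 19752 genes (0.0253%), 0.0152% higher and 0.0101% lower. At an unadjusted p under 0.05, 1 of the 10 was higher (Ctla4), against 1.29% of all genes, and 1 lower (Icos), against 1.42%. The groups of 2 and 2 did not overlap in 6 of the 10 members, beside 29.8% of all genes.

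Icos read 8.08 and 7.96 in DP cKO, against 9.07 and 9.20 in DP WT. The groups lay far apart relative to their spread (log2 difference -1.11, SE 0.39, adjusted p = 1 in limma). Ctla4 read 6.95 and 6.54 in DP cKO, against 6.18 and 6.20 in DP WT (0.55, SE 0.15, adjusted p = 0.852). All of these Ctla4 readings lay below the median of all genes on their own array, so the size depends on the background. With the array labelled DP cKO replicate 5 included, which read 10.59 for Icos and 5.91 for Ctla4, the differences were -0.26 and 0.28. With it Pdcd1 was at 1.45 (SE 1.17) and Btla at 0.57 (SE 0.49), against 0.22 and 0.02 without it. Pdcd1 read 7.33 and 7.30 in DP cKO, against 6.98 and 7.22 in DP WT (0.22, SE 0.32), and Cd2 read 9.67 and 9.90, against 10.01 and 10.02 (-0.23, SE 0.21). Btla read 6.02 and 5.81 in DP cKO, against 5.69 and 6.09 in DP WT, and 1 array of each group lay below its own lower quartile. Its difference was 0.02 (95% interval -0.51 to 0.55). Cd24a was 10.89 and 10.93 in DP cKO, against 11.97 and 12.27 in DP WT. All 7 genes of regulatory T cells, a cell type that carries CTLA-4 and ICOS, were above WT, against 50.8% of all genes. Their sums were 3491 and 3844 in DP cKO against 1811 and 2590 in DP WT. The same genes summed to 3629 to 4642 in V2 cKO and 3770 to 4943 in V2 WT arrays. Among the 7, Il2ra, the interleukin-2 receptor α chain, differed most between the DP groups. It read 10.54 and 10.77 in DP cKO against 8.73 and 9.88 in DP WT. Foxp3, the defining factor, read 7.13 and 7.0 against 6.86 and 6.96. The part of these cells in the Ctla4 and Icos values was not tested.

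Whether the cKO difference itself differed between the populations was tested as an interaction. Among the 10 members it was largest for Btla, at 1.44 more in V2 than in DP (SE 0.31, adjusted p = 0.585), and Cd2, at 1.24 (SE 0.27, adjusted p = 0.577). Neither passed, and 0 of all genes did (0%), with 372 (1.88%) at an unadjusted p under 0.05. For Ctla4 the difference of the differences was -0.08 (95% interval -0.50 to 0.34). It was 0.65 (SE 0.49) for Icos and -0.75 (SE 0.41) for Pdcd1, and it lay between -0.02 and 0.55 for the other 5.

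**Figure D3:**
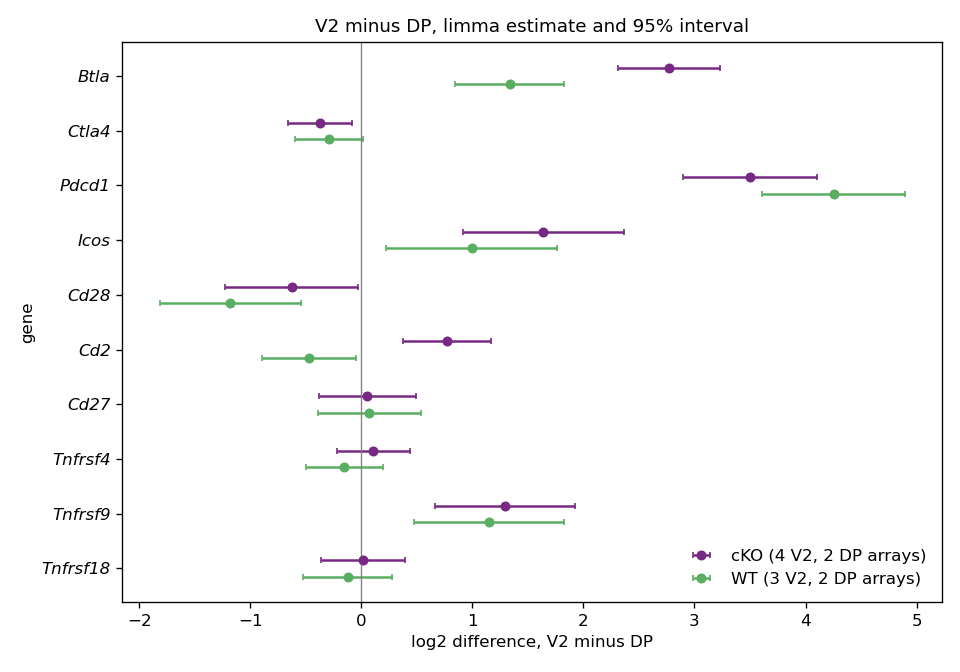
Log2 difference, V2 minus DP (x axis), of the 10 receptor genes (y axis) among cKO arrays (4 V2, 2 DP) and WT arrays (3 V2, 2 DP), as limma estimates with unadjusted 95% intervals. Pdcd1 is farthest to the right, at 3.50 in cKO and 4.25 in WT, and Cd2 lies right of 0 in cKO and left of 0 in WT.

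V2 and DP cells were then compared within each genotype. Pdcd1 was the receptor that most separated them, with 11.3-fold the DP intensity in V2 cells of cKO mice and 19.1-fold in WT mice, followed by Btla, with 6.83-fold in cKO and 2.52-fold in WT. Icos and Tnfrsf9 were also higher in V2 cells, and Cd28 was lower. In cKO, 5 of the 10 rose in V2 relative to DP (Pdcd1, Btla, Icos, Tnfrsf9 and Cd2) and 0 fell, against 3.5% and 1.94% of all genes (5.45% together). In WT, 2 rose (Pdcd1 and Btla) and 1 fell (Cd28), against 3.2% and 1.67% (4.87% together). With the 13 arrays as labelled none of the 10 passed in either genotype, against 7 of all genes in cKO (0.0354%) and 11 in WT (0.0557%). No DP array informs the title set covariate, so these estimates set DP arrays against the midpoint of the 2 V2 title sets. Whether DP arrays belong with either set is not known. Without the covariate 594 genes passed between WT populations in place of 962, and 637 between cKO populations in place of 1076.

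Pdcd1 had no reading below 9.98 on the 7 V2 arrays and none above 7.33 on the 4 DP arrays. The difference was 3.50 (SE 0.28, adjusted p = 4.5e-06) in cKO and 4.25 (SE 0.30, adjusted p = 1.5e-06) in WT, and it passed without any single array. Btla differed by 2.77 (SE 0.21, adjusted p = 3.7e-06) in cKO and by 1.34 (SE 0.23, adjusted p = 0.00305) in WT. Its DP level was near the lower quartile of the arrays, so these sizes depend on the background, and in WT the call was lost without DP WT replicate 3 (1.13, adjusted p = 0.0749). Icos differed by 1.64 (SE 0.33, adjusted p = 0.0099) in cKO and by 0.99 (SE 0.36, adjusted p = 0.177) in WT, and Tnfrsf9 by 1.30 (SE 0.29, adjusted p = 0.0183) in cKO and 1.15 (SE 0.31, adjusted p = 0.0543) in WT. The cKO calls of both were lost without either DP cKO array, with adjusted p of 0.0886 and 0.111 for Icos and 0.120 and 0.183 for Tnfrsf9. Tnfrsf9 also did not pass without the title set covariate (0.163) or with the V2imm set alone (0.73, 0.181), and Icos did not with the immV2 set alone (0.0975). In WT, Icos passed without V2 cKO replicate 3 of immV2 (adjusted p = 0.0143) and Tnfrsf9 without any 1 of the 4 V2 cKO arrays (0.0125 to 0.0292).

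Cd2 differed in opposite directions, at 0.77 (SE 0.18, adjusted p = 0.0242) in cKO and -0.47 (SE 0.19, adjusted p = 0.272) in WT. The cKO call was lost without DP cKO replicate 3 (adjusted p = 0.345), DP cKO replicate 4 (0.107) or either immV2 array of V2 cKO (0.0788 and 0.0728), without the covariate (0.236), with median centring (0.0508) or with the V2imm set alone (0.43, 0.572). Cd28 differed by -0.63 (SE 0.28, adjusted p = 0.317) in cKO and by -1.18 (SE 0.29, adjusted p = 0.0362) in WT. That WT call was lost without any 1 of 6 arrays, the 4 DP arrays and both V2imm arrays of V2 WT (adjusted p 0.0543 to 0.220), and also without the covariate (0.0525), with median centring (0.0592) and with the immV2 set alone (0.249). Ctla4 was lower in V2 on average, at -0.37 (SE 0.13) in cKO and -0.29 (SE 0.14) in WT, without passing. Cd27, Tnfrsf4 and Tnfrsf18 differed by no more than 0.15 in either genotype. Macrophage and dendritic genes were above DP in V2, in 14 of 15 in cKO and 13 of 15 in WT. Of all genes 48.1% and 45.0% were. Cd74 was at 1.72 (SE 0.59) in cKO and 2.33 (SE 0.63) in WT. The part of such cells in these differences was not tested.

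The order of the 4 group means differed from gene to gene. Btla ran from V2 cKO (8.68 ± 0.28, SD, n = 4) over V2 WT (7.21 ± 0.31, n = 3) to DP cKO (5.91 ± 0.15, n = 2) and DP WT (5.89 ± 0.28, n = 2), and the last pair overlapped. Pdcd1 ran from V2 WT (11.29 ± 0.15) and V2 cKO (10.82 ± 0.59), which overlapped, to DP cKO (7.32 ± 0.02) and DP WT (7.10 ± 0.17). Icos was lowest in DP cKO (8.02 ± 0.09), next in DP WT (9.14 ± 0.09), and then in V2 cKO (9.66 ± 0.66) and V2 WT (10.13 ± 0.29), where V2 cKO overlapped both of its neighbours. Ctla4 was highest in DP cKO (6.74 ± 0.29), then in V2 cKO (6.38 ± 0.09), DP WT (6.19 ± 0.02) and V2 WT (5.89 ± 0.02), with no overlap between neighbours. Each of these Ctla4 readings lay below the median of all genes on its own array. Cd28 was highest in DP cKO (11.11 ± 0.21) and DP WT (11.06 ± 0.04), which overlapped, and lowest in V2 WT (9.86 ± 0.37). For Cd27 the 4 means lay between 12.37 and 12.53, and for Tnfrsf4 between 7.02 and 7.28.

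The 2 arrays shown apart read like the other population for several receptors. The array labelled DP cKO replicate 5 had Pdcd1 at 11, Icos at 10.59, Tnfrsf9 at 8.51 and Btla at 7.55, where the kept DP cKO arrays had at most 7.33, 8.08, 7.01 and 6.02. Its Btla lay between the kept V2 cKO and V2 WT ranges, close to the highest V2 WT reading. In the array labelled V2 WT replicate 5, of immV2, Pdcd1 stood at 7.5, Icos at 8.26, Tnfrsf9 at 6.63 and Btla at 5.92, where the kept V2 WT arrays had at least 11.17, 9.82, 7.84 and 6.88. Its Cd28, at 11.14, and its Ctla4, at 6.25, were above all 3 kept V2 WT arrays.

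**Figure D4:**
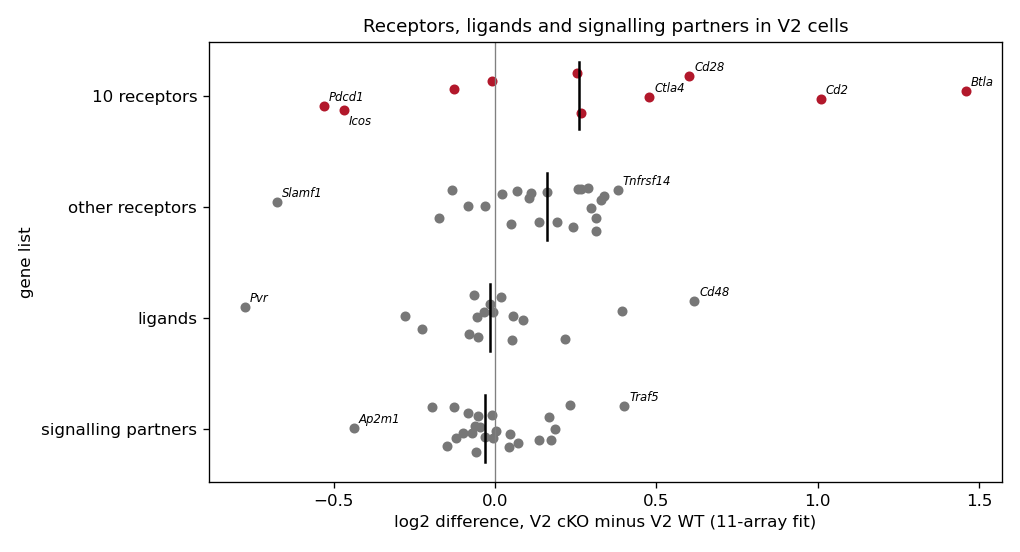
Log2 difference, V2 cKO minus V2 WT (x axis), of the 10 receptors and of 3 lists of related genes (y axis, 23 other receptors, 17 ligands and 25 signalling partners), with 1 point per gene, a black bar at each median, and vertical jitter for display. Btla and Cd2 are the 2 points above 0.8, and the medians run from -0.03 to 0.26.

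Other genes of the same pathways were taken from 3 lists. In V2 cells 0 of 23 other receptors, 0 of 17 ligands and 0 of 25 signalling partners passed between cKO and WT (0% of all genes). Tnfrsf14, which encodes HVEM, the ligand of BTLA, was above WT by 0.38 (SE 0.18), and Cd48, the ligand of CD2, by 0.62 (SE 0.20, adjusted p = 0.905). Slamf1, a self-binding receptor of thymocytes, was below WT on average, at -0.68 (SE 0.20, adjusted p = 0.672), and Pvr, a ligand of CD226 and TIGIT, was at -0.78 (SE 0.35). Lag3, an inhibitory receptor for MHC class II, and Lair1, a collagen receptor, were at 0.26 (SE 0.12) and 0.31 (SE 0.15). Cd86, a ligand of CD28 and CTLA-4, was at 0.22 (SE 0.11), and Vtcn1, of the B7 family, at -0.28 (SE 0.15). Among the signalling partners Traf5, an adaptor of CD27 and OX40, was at 0.40 (SE 0.14, adjusted p = 0.999), Ap2m1, of the clathrin adaptor that takes up CTLA-4, at -0.44 (SE 0.34), Trat1 at 0.23 (SE 0.23) and Nfkb2 at 0.17 (SE 0.14). Of the other receptors 18 of 23 were above WT in the fit, against 52.1% of all genes. Their median was 0.16, and those of ligands and partners were -0.02 and -0.03, beside 0.01 for all genes.

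In DP cells none of the 3 lists held a gene that passed between cKO and WT either (0.0253% of all genes). Cd226, a costimulatory receptor for Pvr, was at 0.83 (SE 0.23, adjusted p = 0.852), and Tnfrsf14 at 0.73 (SE 0.23). The ligand genes Tnfsf14 (LIGHT), Tnfsf4 (OX40 ligand) and Tnfsf9 (4-1BB ligand) were at -0.46 (SE 0.17), -0.44 (SE 0.16) and -0.36 (SE 0.18), and Cd274, the PD-1 ligand gene, at 0.54 (SE 0.32). As labelled Tnfsf14 was at 0.04. Slamf1 (-0.43, SE 0.26) and Lag3 (-0.25, SE 0.16) were below WT on average. Pik3r1, the regulatory subunit of phosphoinositide 3-kinase, was at -0.40 (SE 0.24), Lrba, which protects CTLA-4 from degradation, at 0.32 (SE 0.23), Traf1 at 0.32 (SE 0.31) and Nfkb2 at 0.22 (SE 0.17).

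Between the populations in WT, 3 of the 23 other receptors rose in V2 and 3 fell, against 3.2% and 1.67% of all genes. Cd226 rose by 2.94 (SE 0.21, adjusted p = 2e-06) and Cd160, another receptor for HVEM, by 1.57 (SE 0.22, adjusted p = 6.95e-04), and the third was Tnfrsf1b, named outside the rule after its value was seen (0.96, SE 0.21), whose call was lost without any 1 of the 5 WT arrays (adjusted p 0.0572 to 0.150). Those that fell were Cd96, Slamf1 and, also named after its value was seen, Lag3 (-0.56, SE 0.14), whose call was lost without any 1 of 9 of the 11 arrays (adjusted p 0.0516 to 0.302). Slamf1 was at -1.14 (SE 0.24, adjusted p = 0.0119), and its call was lost without V2 WT replicate 5 of V2imm (adjusted p = 0.0612) or DP WT replicate 5 (0.117). Slamf1 also did not pass without the covariate (-0.89, adjusted p = 0.665) or with the V2imm set alone (-0.54, adjusted p = 0.482). Cd96, a receptor of the CD226 family, was at -1.48 (SE 0.23), but this rested on the V2imm arrays: with the immV2 set alone it was 0.10. Among 17 ligands 1 fell, Pvr (-1.70, SE 0.42, adjusted p = 0.0348), and it did not pass without any 1 of 7 arrays (adjusted p 0.0503 to 0.191). Cd274 (0.93, SE 0.29), Lta, the lymphotoxin α gene (0.39, SE 0.14), and Tnfsf9 (-0.44, SE 0.16) did not pass, though Cd274 did without V2 cKO replicate 4 of V2imm (adjusted p = 0.0246). Of 25 signalling partners 2 rose and 0 fell. Prkcq, the kinase PKC-θ downstream of CD28, rose by 1.11 (SE 0.18, adjusted p = 0.00246), and Pik3cd, the δ catalytic subunit of phosphoinositide 3-kinase, by 1.67 (SE 0.36, adjusted p = 0.0146). The Pik3cd call was lost without any 1 of the 3 V2 WT or the 2 DP WT arrays (adjusted p 0.0581 to 0.139). Without the covariate the WT calls of Pik3cd (adjusted p = 0.339), Tnfrsf1b (0.747), Cd96 (0.533), Lag3 (0.0937) and Pvr (0.0654) were lost as well. Trat1 (-0.82, SE 0.28) and Lrba (0.50, SE 0.21) did not pass. In cKO, 5 other receptors rose in V2 (Cd226, Cd160, Tnfrsf1b, Cd200r1 and Lair1) and 3 fell (Cd96, Slamf1 and Tnfrsf8), against 3.5% and 1.94% of all genes, and these and the next were named after their values were seen. Cd226 (2.45, SE 0.20, adjusted p = 5.11e-06) and Cd160 (1.63, SE 0.21, adjusted p = 2.98e-04) passed without any single array. Cd96 (-1.63, SE 0.22) was at -0.21 with the immV2 set alone (adjusted p = 0.559) and Slamf1 (-1.38, SE 0.22) at -0.53 with the V2imm set alone (0.446), and neither passed without the covariate (0.628 and 0.264). Tnfrsf1b (0.94, SE 0.19), Cd200r1 (0.99, SE 0.22) and Lair1 (0.84, SE 0.17) did not pass without either DP cKO array (adjusted p 0.0593 to 0.206), and Cd200r1 did not without V2 cKO replicate 3 of immV2 (0.0548). Tnfrsf8 (-0.99, SE 0.23) did not pass without DP cKO replicate 4 (0.391), V2 WT replicate 5 of V2imm (0.0535) or V2 cKO replicate 4 of immV2 (0.0733), nor in 4 of the other settings. Of the ligands Cd48 (0.88, SE 0.23) and Tnfsf14 (0.63, SE 0.15) rose and Pvr fell (-2.28, SE 0.40, adjusted p = 0.0033). Of the partners Prkcq (1.01, SE 0.17) and Pik3cd (1.37, SE 0.34) rose. Without the covariate neither Tnfsf14 (adjusted p = 0.350) nor Tnfrsf1b (0.512) passed in cKO. The Cd48 call was lost in 12 of 21 other settings and the Pik3cd call in 10 of 21, and for both these held the removal of either V2imm array of V2 WT, either DP cKO array or either immV2 array of V2 cKO, and for Cd48 also of the immV2 array of V2 WT (adjusted p 0.0538 to 0.313 for Cd48, 0.0558 to 0.232 for Pik3cd). Tnfsf14 did not pass without either DP cKO array (0.166 and 0.219) or V2 cKO replicate 4 of immV2 (0.0797). Pvr (0.053) and Prkcq (0.0784) did not pass without DP cKO replicate 4.

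The genes whose values ran most like those of Btla over the 11 arrays were Prr13 (Pearson r = 0.98), Pla2g4a (0.97), Cd72 (0.96), Scfd2 (0.96) and Plscr1 (0.96). For Ctla4 they were Acpp (r = 0.88), Mir128-1 (0.88), Mirt1 (0.87), Msrb2 (0.86) and Cyp4f16 (0.86). Over all 13 arrays as labelled the Ctla4 values were 0.70, 0.86, 0.74, 0.65 and 0.80 in the same order, and those of Btla lay between 0.91 and 0.98. These are descriptions, picked as the highest of all genes, over arrays that share populations, genotypes and title sets.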

How the data were processed

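The authors deposited 1 linear intensity per probe set and array, and the submitters' processing notes name Affymetrix Power Tools and RMA. That the scale is linear was read from the values (6.16 to 23800). Their log2 was taken from the deposited intensity. Array medians ran from 122.2 to 137.2, and precision here is set by how few arrays there are, as arrays have no read depth. Of 24922 probe sets, 21425 had 1 symbol in the platform annotation, and each of 19752 genes was represented by its probe set of highest mean. Groups came from titles. limma 3.58.1 in R 4.3.3 (lmFit, eBayes with intensity trend) fitted 4 group means and a covariate for the V2 title set over 11 arrays, two-sided, with Benjamini-Hochberg adjustment over all genes at 0.05. Simulated data held 200 changed genes among 19752. Of changes of 1 log2 unit, the fit recovered 95% in the V2 comparison, 71% in the DP comparison and 83% between WT populations. In the same order it called 195, 170 and 183 changed genes, and falsely 16, 7 and 15 unchanged ones. The simulated noise was independent, with the spread that the fit itself estimated. It was set around 1 mean per gene, without population or title set effects. These shares thus describe the fit under its own assumptions and are not the power in the real arrays, which may do worse. In the real V2 comparison 0 of 19752 genes passed, and Btla, at 1.46, and Cd2, at 1.01, did not.

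Members, lists, the choice of 11 arrays and the settings were chosen with earlier results of these data known. Named genes are the 10 members, up to 4 genes of smallest p per list in each cKO against WT comparison and between WT populations, and the 5 most correlated with Btla and with Ctla4. Alternatives were all 13 arrays, no covariate, a replicate block, other normalisation, filtering, moderation and probe set rules, parts of the arrays, and each array left out; leaving out 1 of 2 arrays assumes that the other varies like the rest. Residuals of same-numbered arrays of a title set correlated between -0.50 and 0.18. That check cannot decide on pairing, since groups of 1 or 2 arrays within a title set leave residuals that partly mirror each other. In DP every pair of a cKO and a WT array stood at 0.18 or -0.18. Replicate numbers were not taken as pairs in the main fit, and a replicate block gave 34 genes in V2, Btla among them. Figures used matplotlib 3.10.9. No genome sequence beyond the RefSeq promoter table was used here.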

Additional observations from a re-analysis of the deposited data

Results flagged for a closer look

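Cd27 in V2 cKO replicate 4 (V2imm) stood apart from the other 3 V2 cKO arrays, at 12 against 12.56 to 12.58, a gap of 0.954 of the group's range. Ctla4 (0.886) and Pdcd1 (0.928) did so in the array labelled V2 WT replicate 5 (immV2), when it is counted with the other V2 WT arrays; it is the array with DP markers. Such gaps were looked for in 20 groups of 4 arrays, of which chance marks about 1 in 20. For Cd2 every V2 cKO array was above every V2 WT array and every DP cKO array was below every DP WT array; the difference between the cKO effects was 1.24 (SE 0.27), which did not pass (adjusted p = 0.577 in limma).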

How the results depend on the processing

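Of 2280 values recomputed under other settings, 56 changed sign, 144 lost a call and 16 gained one. No member that passed changed sign under any setting run. Values that changed sign are given as log2 differences. Between V2 cKO and V2 WT 0 genes passed in the 11 arrays, between DP cKO and DP WT 5, for the difference of the cKO effects 0, between V2 WT and DP WT 962, and between V2 cKO and DP cKO 1076; counts below that differ from these by more than 1.5 times are in the same order of comparisons.
With all 13 arrays as labelled, counts were 0 for DP, 11 for V2 WT against DP WT and 7 for V2 cKO against DP cKO. Between V2 cKO and V2 WT, Pdcd1 was then 0.48, Tnfrsf9 0.51 and Trat1 -0.0096. Between DP cKO and DP WT, Cd28 was -0.35, Tnfrsf9 0.37 and Tnfsf14 0.042, the difference of the Ctla4 effects was 0.12, and between V2 cKO and DP cKO Cd27 was -0.041 and Tnfrsf18 -0.060. Without the title set covariate counts were 3 for DP, 594 between WT and 637 between cKO populations, Tnfrsf9 was 0.15 in V2, and the difference of the Cd27 effects was 0.0086.
Replicate numbers were not taken as pairs. With them as a replicate block counts were 34 in V2, 8 in DP and 4 for the difference of effects, Btla was called in V2 (1.58), Tnfrsf9 was 0.15 in V2, Cd27 0.13 and Tnfsf9 0.083 in DP, and the difference of the Tnfrsf18 effects was -0.022; the block left V2 against DP without an estimate. Quantile normalisation gave 13 in V2 and 9 in DP, with Tnfrsf18 at -0.035 between cKO populations. Genes above the lower quartile alone gave 9 and 8, robust moderation 6 in V2, and DP arrays alone 0 in DP.
The V2imm set alone gave 6 genes in V2, Lair1 at -0.00010 in V2, differences of effects of -0.061 for Tnfrsf9 and -0.018 for Tnfrsf18, and Cd27 at -0.088 and Tnfrsf18 at -0.37 between cKO populations. The immV2 set alone gave Cd27 0.078, Tnfrsf9 0.30 and Trat1 -0.31 in V2, 0.19 for the difference of the Cd27 effects, and Tnfrsf18 0.036 and Cd96 0.10 between WT populations.
Leaving out each array in turn, counts ran from 0 to 44 in V2, 0 to 14 in DP, 0 to 4 for the difference of effects, 477 to 1575 between WT and 480 to 1632 between cKO populations. In V2, Tnfrsf9 ran from -0.24 to 0.25, Cd27 from -0.26 to 0.047, Ap2m1 from -0.88 to 0.082 and Lair1 from -0.00010 to 0.42. In DP, Btla ran from -0.18 to 0.22, Cd27 from -0.36 to 0.14, Tnfrsf4 from -0.019 to 0.0071, Cd28 from -0.098 to 0.20 and Traf1 from -0.083 to 0.72. Differences of effects ran from -0.27 to 0.23 for Cd27, -0.084 to 0.40 for Tnfrsf9, -0.28 to 0.13 for Ctla4 and -0.018 to 0.23 for Tnfrsf18. Between cKO populations, Cd27 ran from -0.032 to 0.20 and Tnfrsf18 from -0.079 to 0.089, and between WT populations Cd27 from -0.18 to 0.32, Tnfrsf4 from -0.27 to 0.027 and Tnfrsf18 from -0.21 to 0.032. The cause of these changes was not tested, beyond the fewer or mixed arrays each setting holds. Pairs of DP arrays and signals near background, as for Btla in DP cells and Ctla4, limit what can be measured.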

Other observations

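Cd96, an adhesion receptor of the CD226 family, separated the title sets rather than the genotypes. It read 8.55 and 8.97 in V2 cKO and 8.82 and 8.23 in V2 WT arrays of V2imm, against 11.70 and 11.50 in V2 cKO and 11.62 in V2 WT arrays of immV2. DP arrays read 11.97 and 11.65 in cKO and 11.48 and 11.57 in WT. The 4 V2imm arrays were thus below every other array, the 2 shown apart included (11.40 and 11.95). Pik3cd read 8.07 and 9.71 in V2 cKO and 9.11 and 8.98 in V2 WT arrays of V2imm, all below 10.16 and 10.51 in V2 cKO and 10.36 in V2 WT arrays of immV2. These genes were picked after their values were seen.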
